A study of Mus musculus with 3 samples.

Results

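The stretch of mouse chromosome 8 around Ucp1 was examined for sites of open chromatin in fat cells grown from 3 depots. Its members are the DNase I hypersensitive sites whose midpoint lay in a fixed window of 200 kb, from 85720000 to 85920000 on chromosome 8 of the build mm9. The choice used position only. The window held 28 of the 172496 sites in the 3 deposited lists. Of these, 9 came from brown fat (BAT), 9 from inguinal white fat (iWAT) and 10 from epididymal white fat (eWAT). Merged wherever they overlapped or touched, they formed 12 of the 99297 regions of the series. Ucp1 itself was taken to lie at about 85814000 to 85822500 on the plus strand, and all distances below are from that approximate start. In the order of the GRCm38 gene table, its protein-coding neighbours are Tbc1d9 before it and Elmod2 after it.

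Ucp1 encodes uncoupling protein 1, a carrier of the inner mitochondrial membrane that lets protons flow back without making ATP, so that the energy of fuel oxidation is released as heat. It is the hallmark gene of brown fat cells and is also switched on in the beige cells that arise in some white depots, the inguinal depot above all. Its transcription depends on regulatory elements upstream of the gene that bind nuclear receptors such as PPARγ and respond to cyclic AMP, the messenger of noradrenaline in fat. DNase-seq does not measure transcription: it counts the ends of DNA cut by DNase I, which gather where a stretch of chromatin is open.

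The cells were differentiated in culture from the stromal-vascular fraction, the part of fat tissue that holds the precursors, of male NMRI mice of 4 to 5 weeks. The BAT culture started from pooled interscapular, cervical and axillary brown fat, the iWAT culture from the inguinal depot under the skin and the eWAT culture from the epididymal depot in the abdomen. Every culture received 10% newborn calf serum, 30 nM insulin and 1 µM rosiglitazone, a drug that activates PPARγ, so no culture shows the locus without it. Cells were harvested 8 days after plating, only where more than 50% had differentiated, and nuclei were cut with 120 U/ml DNase I. Each depot gave 1 library, so no depot has a replicate error and no test between depots was possible. Transcripts were not measured, so the cell types could not be checked against marker genes.

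The values are the authors' normalized tag counts, that is, sequence tags per site scaled to a library total not given in the sources used here. Within each list they were whole multiples of 1 step, 0.857 in BAT, 0.985 in iWAT and 0.595 in eWAT, and 1 step was taken as 1 tag. No value was as low as 1 step, and the sources used here do not state the worth of a tag, so the tag numbers and the intervals made from them rest on that reading. The median site of each list held 14 tags in BAT, 14 in iWAT and 16 in eWAT. At that depth the counting error of a site is wide: 20 tags have an exact 95% Poisson interval of 12.2 to 30.9. Intervals here cover counting error only. Tags are not known to be independent molecules.

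The data showed an open upstream stretch at Ucp1 in all 3 depots and no listed site at the gene itself. The highest site within 15 kb upstream lay 11.6 kb from the start in every depot, and it ranked highest in its own list in iWAT, next in BAT and lowest in eWAT. BAT listed both sites closest to the gene, at 5.6 and 4.4 kb upstream, where each white depot listed a single site of lower rank by tag count. Ranked by fold over the surroundings, the white sites stood above the BAT sites there. Outside these 15 kb, the regions 17.3 and 29.5 kb upstream and a pair of sites about 42 kb beyond the start were listed in all depots. The map of sites by depot shows this layout.

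**Figure D1:**
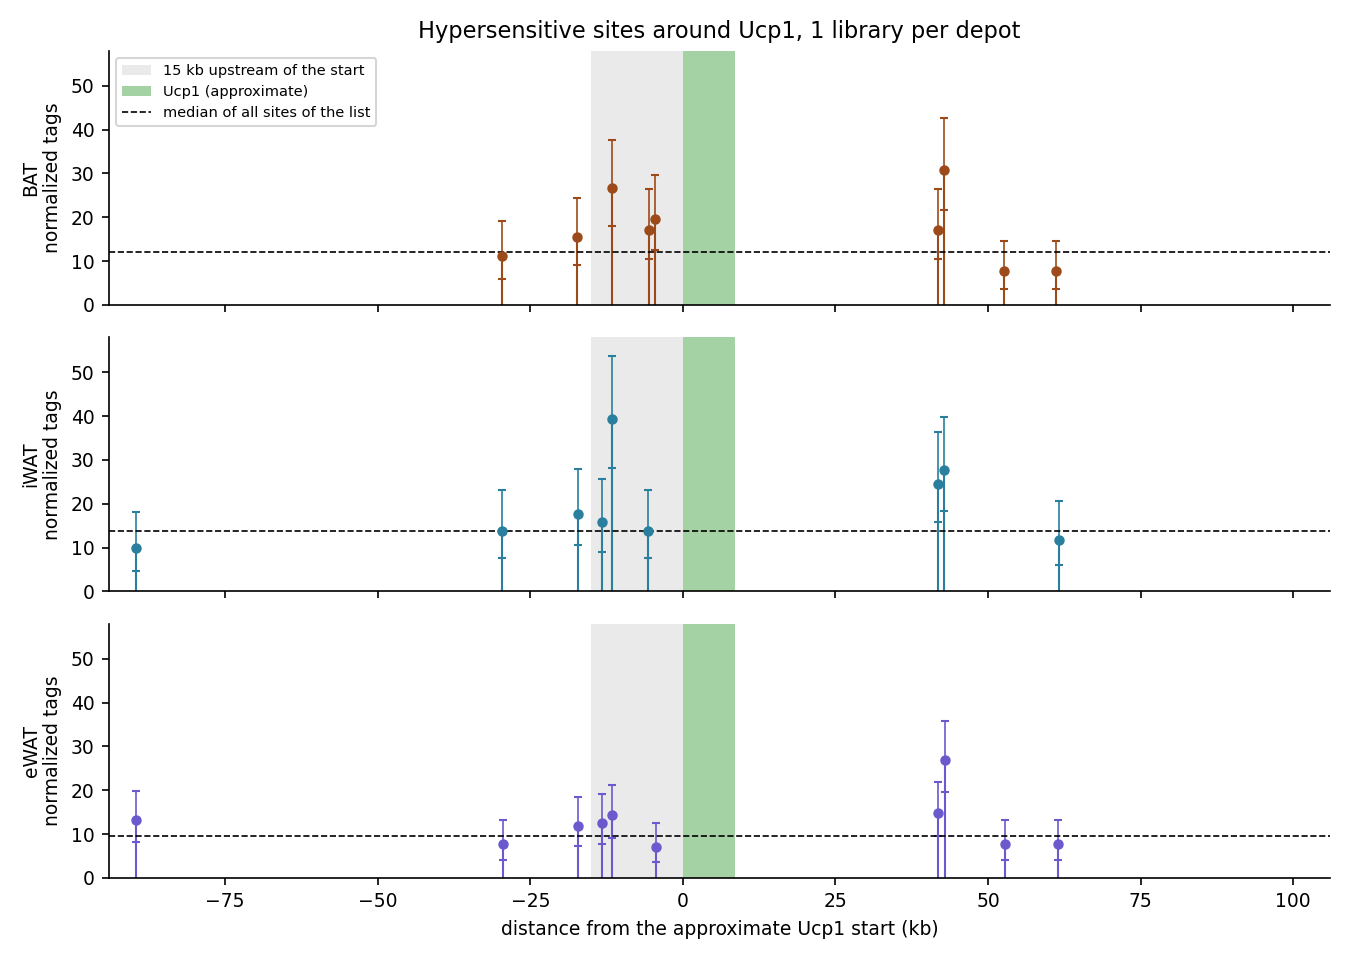
Each point is a hypersensitive site, placed by its distance from the approximate Ucp1 start in kb (x axis) at its normalized tag count (y axis), with exact 95% Poisson intervals as bars. Panels from the top are BAT, iWAT and eWAT with 1 library each; the grey band is the 15 kb upstream, the green band is Ucp1, and the dashed line is the median of all sites of the list (12, 13.8 and 9.52 normalized tags). All 3 panels have sites in the grey band and none in the green band, and the site at 11.6 kb upstream is the highest of the grey band in each.

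Because no listed site covers it, the promoter is shown only as the sequence the lists leave blank. The 250 bases before the Ucp1 start, from RefSeq for the reference strain C57BL/6J (GRCm38.p6, chr8:83290098-83290347, plus strand; these coordinates are not on the scale of the mm9 sites), are printed with capitals at the motifs found.
Ucp1 promoter: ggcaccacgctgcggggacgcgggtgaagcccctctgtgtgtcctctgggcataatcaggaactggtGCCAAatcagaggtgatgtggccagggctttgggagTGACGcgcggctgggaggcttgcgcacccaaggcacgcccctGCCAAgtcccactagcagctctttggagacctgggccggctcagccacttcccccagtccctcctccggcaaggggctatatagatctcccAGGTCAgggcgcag
On both strands, the core AGGTCA that nuclear receptors bind occurred once, beginning 14 bases before the start, and 14.0% of the 32851 promoters of the table held it. The core of the cyclic AMP response element, TGACG, began 147 bases before the start and was found in 17.8% of promoters. The NFI core TTGGC occurred on the minus strand, read here as GCCAA, at 183 and 105 bases, and was found in 41.5% of promoters. No match in these letters was found for the TATA box as TATAAA, the full cyclic AMP response element or the C/EBP motif TTGCNNAA. The CCAAT box, the GC box GGGCGG, the full direct repeat of nuclear receptors, the full NFI palindrome and the EBF palindrome had none either. Variants of these motifs were not searched, so a missing match does not show that the element is absent. The stretch held 12 CG dinucleotides, against a median of 6, and 64.8% of its bases were G or C, against a median of 52.4%. A match is a run of letters and shows no binding.

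No list held a site in the gene, which spans about 8.5 kb, or between the gene and the closest upstream site. In the merged lists the stretch without a site ran for 45.9 kb, from 85809742 to 85855617. Of the 99276 stretches between neighbouring regions on the same chromosome, 12.5% were at least as long, so such a gap is not rare in these lists. In BAT the closest site upstream was centred 4.49 kb from the start, in iWAT 5.64 kb and in eWAT 4.37 kb. Each list holds only sites at least 4 times denser in tags than their surroundings, so a site in a broadly open stretch can be missing. Absence from a list therefore does not show closed chromatin.

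The 15 kb upstream of the start held 3 sites in each depot. On a grid of windows of that width over the genome, at least 3 sites were found in 1.16% of windows in BAT, 1.98% in iWAT and 1.57% in eWAT. The grid holds many windows far from any gene. Summed over the zone, the sites held 74 tags in BAT (exact 95% Poisson interval 58.1 to 92.9), 70 in iWAT (54.6 to 88.4) and 57 in eWAT (43.2 to 73.9). They covered 666, 666 and 660 bp in BAT, iWAT and eWAT. Their mean was 21.1 normalized tags in BAT, 23.0 in iWAT and 11.3 in eWAT.

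Normalized tag counts differed between the libraries across the genome, so ratios were set against all regions listed once in each depot. Over these 24988 common regions the median ratio was 0.798 for BAT over iWAT, 1.21 for BAT over eWAT and 1.52 for iWAT over eWAT. The 3 sites of the upstream zone were not the same regions in each list, so a ratio of their sums mixes different regions. Divided by the median ratio, the ratio of sums was 1.15 for BAT over iWAT (counting interval 0.82 to 1.62). It was 1.54 for BAT over eWAT (1.08 to 2.22) and 1.34 for iWAT over eWAT (0.93 to 1.93). For all sites of the window it was 1.10 (0.89 to 1.36), 1.02 (0.83 to 1.26) and 0.93 (0.76 to 1.14) in the same order of pairs.

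The strongest upstream region, chr8:85802236-85802529, lay 11.6 kb before the start and was listed in all 3 depots. Its site held 26.6 normalized tags in BAT (31 tags), 39.4 in iWAT (40 tags) and 14.3 in eWAT (24 tags). By rank this put it at place 4500 of 48308 in BAT, 2710 of 63214 in iWAT and 12747 of 60974 in eWAT, which is the top 9.32%, 4.29% and 20.9%. It was the highest site of the whole window in iWAT, the next to highest in BAT and the third in eWAT. Tag density stood 14.2 times above the surroundings in BAT, 22.9 times in iWAT and 9.88 times in eWAT.

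Set against the common regions, this site was 1.81 times higher in iWAT than in eWAT, a log2 ratio of 0.86 with a counting interval of 0.10 to 1.66. Of all common regions, 3.49% had an iWAT over eWAT ratio at least as high. The BAT over eWAT ratio was 0.62 on the log2 scale (-0.20 to 1.45), and 10.3% of common regions were at least as high. Between BAT and iWAT the log2 ratio was -0.24 (-0.97 to 0.47), so the order of BAT and iWAT at this site is within counting error. The centres of its sites lay 35 bp apart in BAT and iWAT, 72 bp in BAT and eWAT and 37 bp in iWAT and eWAT. The median distance over all overlapping pairs of sites was 44, 43 and 43 bp.

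Closer to the gene, the region chr8:85808246-85808642, 5.6 kb upstream, was listed in BAT and iWAT. It held 17.1 normalized tags in BAT (20 tags, top 26.2%) and 13.8 in iWAT (14 tags, top 47.8%). Relative to the common regions the log2 ratio of BAT over iWAT was 0.63, with a counting interval of -0.42 to 1.74 that includes 0. The BAT and iWAT sites overlapped by 48 bp and their centres were 174 bp apart. With an overlap of 50% of the width required, they were separate regions and gave no ratio. Of all 31676 overlapping pairs of BAT and iWAT sites, 7.64% had centres at least that far apart. The nearest eWAT site began 880 bp from the edge of the region.

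The region closest to the gene, chr8:85809401-85809742, lay 4.4 kb upstream and was listed in BAT and eWAT. It held 19.7 normalized tags in BAT (23 tags) and 7.14 in eWAT (12 tags). The BAT and eWAT sites overlapped by 101 bp, with centres 120 bp apart. When an overlap of 50% of the width was required, they were separate regions and gave no ratio. In BAT the site was in the top 19.5% of its list, and in eWAT it was the lowest of the window, at the top 73.7%. Relative to the common regions, BAT was 2.28 times higher than eWAT, a log2 ratio of 1.19 with a counting interval of 0.12 to 2.33. Of the 5277 regions listed once in BAT and eWAT and not in iWAT, 1.91% were at least 2-fold higher in BAT, and 0.815% had a ratio at least as high as here. The nearest iWAT site ended 933 bp away, in the region 5.6 kb upstream.

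Both BAT sites near the gene stood only 5.28 and 5.25 times above their surroundings, at 5.6 and 4.4 kb, where the median BAT site stood 9.23 times above. Ranked by this fold instead of tags they were near the end of the list, at the top 90.5% and 90.9%. By the same measure the iWAT site at 5.6 kb was at the top 67.7% and the eWAT site at 4.4 kb at the top 82.1%, both above BAT, so the order of the depots turns with the measure. The iWAT site at 5.6 kb had a fold of 7.91 and the eWAT site at 4.4 kb had 5.28, with list medians of 9.91 and 7.46. The focus ratio gauges how sharply tags are centred, from 0 to 1. In BAT it was 0.605 at 5.6 kb and 0.519 at 4.4 kb, which was the lowest value among the 28 sites of the window, and the median of the BAT list was 0.704.

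The last region of the upstream zone, chr8:85800683-85800934, lay 13.2 kb before the start and was listed in the white depots. It held 15.8 normalized tags in iWAT (16 tags, top 38.8%) and 12.5 in eWAT (21 tags, top 28.2%). Relative to the common regions the log2 ratio of iWAT over eWAT was -0.26, with a counting interval of -1.30 to 0.74. The nearest BAT site lay 1302 bp away, within the region at 11.6 kb. In iWAT the focus ratio of 0.944 was the highest of the window.

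**Figure D2:**
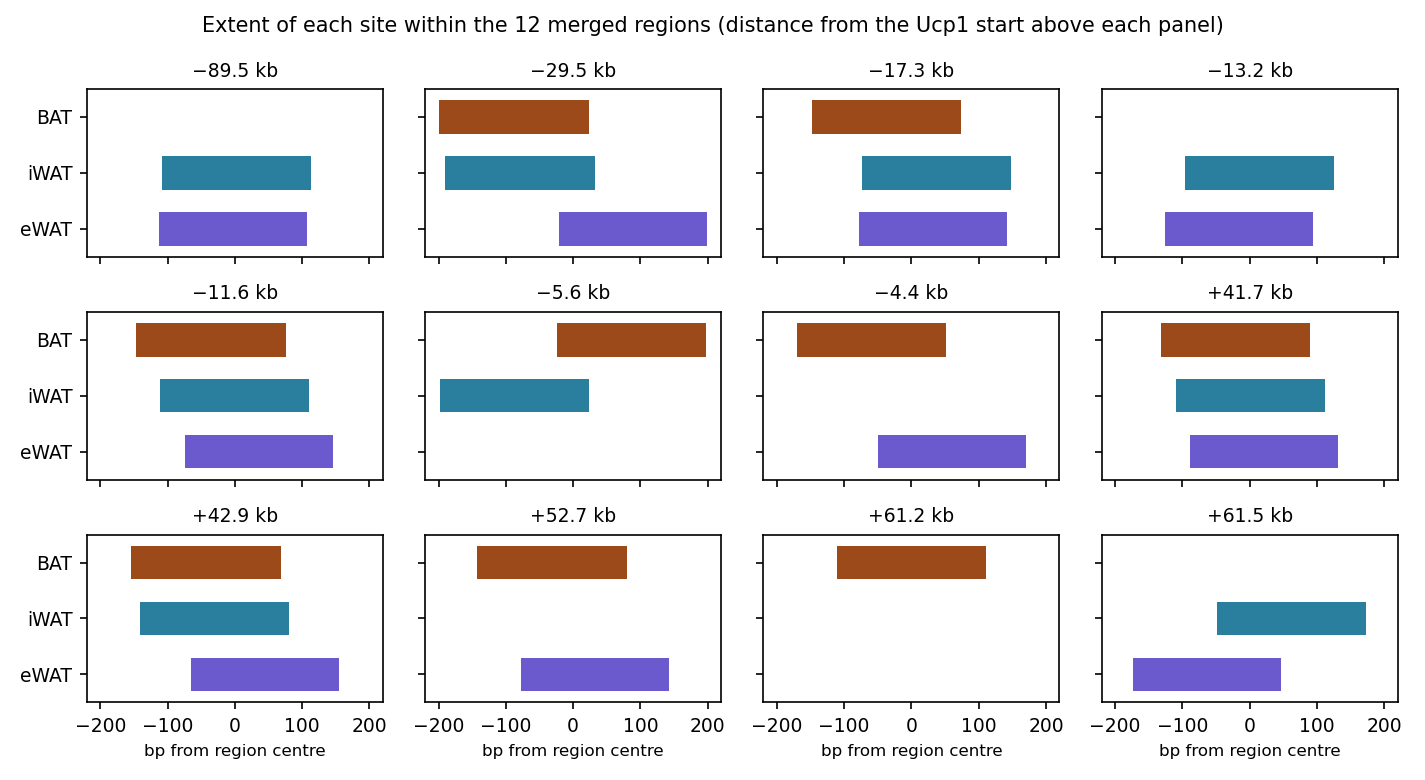
Each bar is the extent of a site of BAT, iWAT or eWAT (rows from the top) in bp from the centre of its merged region (x axis), with 1 panel for each of the 12 regions of the window and the region's distance from the Ucp1 start above it. At 41.7 kb beyond the start the bars nearly coincide, with centres 21 to 43 bp apart, whereas at 29.5 kb upstream the eWAT site is shifted by 177 bp from BAT and 168 bp from iWAT.

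The window as a whole was richer in sites than most of the genome in every depot. On a grid of 200 kb windows the median number of sites was 2 in BAT, 4 in iWAT and 3 in eWAT. At least as many sites as at Ucp1 were found in 13.2% of windows for BAT, 22.1% for iWAT and 16.9% for eWAT. Of the 9 BAT sites 6 were in the upper 50% of their list by tag count, as were 7 of the 9 iWAT sites and 6 of the 10 eWAT sites. The median rank was the top 26.2% in BAT, 38.8% in iWAT and 29.7% in eWAT. In BAT the sites ranged from 7.71 to 30.8 normalized tags, in iWAT from 9.85 to 39.4 and in eWAT from 7.14 to 26.8.

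Of the 12 regions, 5 were listed in all 3 depots, where 25.2% of all regions of the series were. BAT was the sole list for 1 region, with 11.4% of the series in that class. iWAT was the sole list for none (20.5% of the series) and eWAT for none (19.6%). Another 3 regions were in iWAT and eWAT (11.3% of the series), 2 in BAT and eWAT (5.32%) and 1 in BAT and iWAT (6.73%). The numbers of regions are small, and neighbouring sites are not independent.

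The region listed in BAT and in no other depot, chr8:85875056-85875278, was among the weakest BAT sites, with 7.71 normalized tags (9 tags, top 93.4%). It lay 61.2 kb beyond the start, and an eWAT site lay 42 bp from its edge. That neighbouring region, chr8:85875320-85875667, was listed in iWAT with 11.8 normalized tags (12 tags) and in eWAT with 7.73 (13 tags). The BAT site thus stood beside sites of both white depots. With sites up to 200 bp apart merged, it joined them, and no region of the window was listed in BAT alone.

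**Figure D3:**
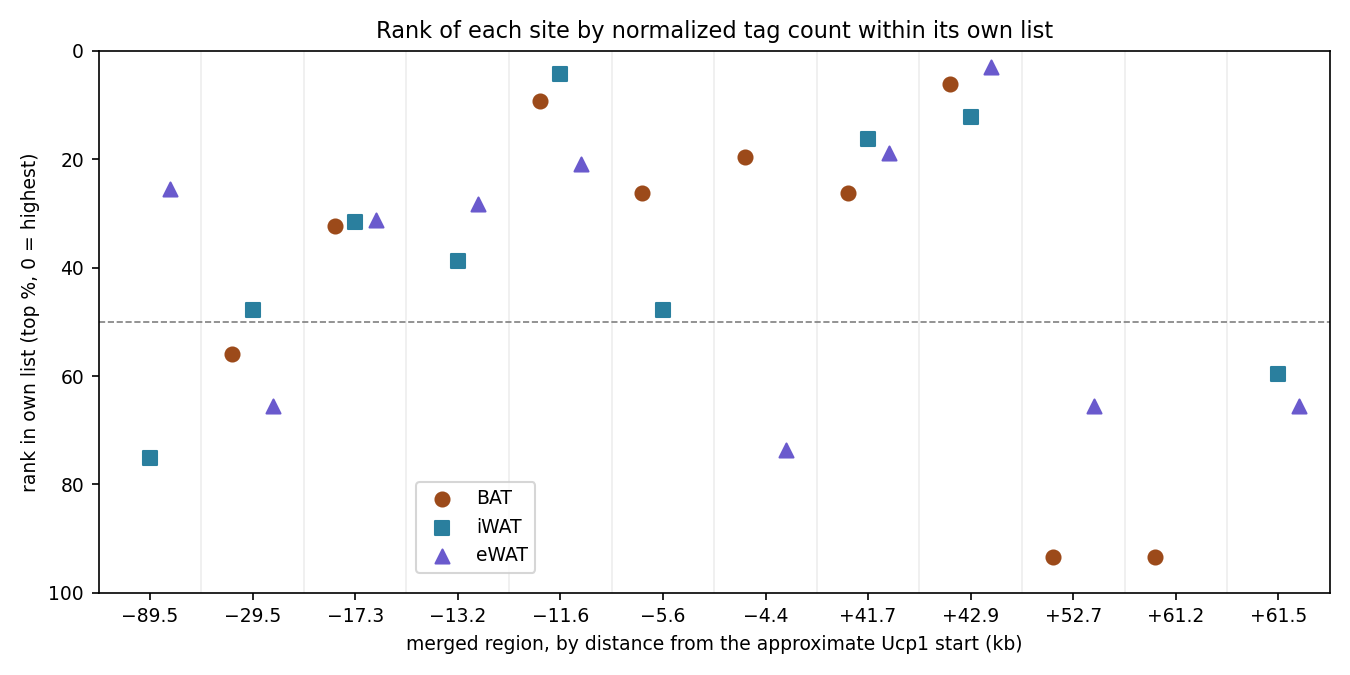
The rank of each site by normalized tag count within its own list (y axis, in percent from the top, with 0 the highest) is shown for the 12 merged regions in order of their distance from the Ucp1 start in kb (x axis). Circles are BAT, squares iWAT and triangles eWAT, with 1 library each, and a missing symbol means that the list holds no site there. At 17.3 kb upstream the 3 ranks nearly coincide (32.3%, 31.7% and 31.2%), and at 4.4 kb upstream BAT (19.5%) and eWAT (73.7%) are far apart.

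Further upstream, the region chr8:85796600-85796896 lay 17.3 kb before the start, just outside the 15 kb zone. It held 15.4 normalized tags in BAT, 17.7 in iWAT and 11.9 in eWAT, from 18, 18 and 20 tags. Its rank was nearly the same everywhere, at the top 32.3%, 31.7% and 31.2% in BAT, iWAT and eWAT. The log2 ratios against the common regions were 0.12 for BAT over iWAT, 0.09 for BAT over eWAT and -0.03 for iWAT over eWAT.

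The region chr8:85784254-85784652, 29.5 kb upstream, was also listed in all depots, with 11.1 normalized tags in BAT, 13.8 in iWAT and 7.73 in eWAT. These are 13, 14 and 13 tags. The BAT and iWAT sites nearly coincided, with centres 9 bp apart. The eWAT site was centred 177 bp from that of BAT, a distance reached by 7.05% of overlapping BAT and eWAT pairs, and overlapped it by 44 bp. With an overlap of 50% of the width required, the eWAT site was a separate region, and this region was not common to all depots.

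The region farthest upstream, chr8:85724357-85724583, lay 89.5 kb before the start and was listed in the white depots, with 9.85 normalized tags in iWAT (10 tags) and 13.1 in eWAT (22 tags). It was at the top 75.1% of the iWAT list and the top 25.6% of the eWAT list. Relative to the common regions, iWAT was lower by a log2 ratio of -1.01, with a counting interval of -2.25 to 0.13 that includes 0. Of the 11196 regions listed once in iWAT and eWAT and not in BAT, 2.16% were at least 2-fold lower in iWAT. The nearest BAT site was 13963 bp away, and it did not lie in the window.

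Beyond the gene, a pair of regions 41.7 and 42.9 kb from the start was listed in all 3 depots. The farther, chr8:85856717-85857025, held 30.8 normalized tags in BAT (36 tags), 27.6 in iWAT (28 tags) and 26.8 in eWAT (45 tags). It was the highest site of the window in BAT and in eWAT, at the top 6.07% and 3.0% of those lists, and the next to highest in iWAT, at the top 12.2%. Its log2 ratio was 0.48 for BAT over iWAT (counting interval -0.27 to 1.25), -0.08 for BAT over eWAT (-0.75 to 0.59) and -0.56 for iWAT over eWAT (-1.29 to 0.15). Every one of these intervals includes 0.

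The nearer region of the pair, chr8:85855617-85855881, held 17.1 normalized tags in BAT (20 tags), 24.6 in iWAT (25 tags) and 14.9 in eWAT (25 tags), at the top 26.2%, 16.3% and 18.9%. No mm9 annotation was used here, so neither region is assigned to Elmod2 or another gene. The region chr8:85866546-85866831, 52.7 kb beyond the start, was listed in BAT with 7.71 normalized tags (9 tags) and in eWAT with 7.73 (13 tags), both low in their lists.

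The highest upstream site and the highest site beyond the gene stood in a different order in iWAT than in BAT and eWAT. In BAT the site at 11.6 kb upstream held 26.6 normalized tags and the site at 42.9 kb beyond the start 30.8. In iWAT the upstream site was the higher of the pair, with 39.4 and 27.6, and in eWAT the lower, with 14.3 and 26.8. The counting intervals of the 2 sites overlapped in BAT (18.0 to 37.7 and 21.6 to 42.7) and in iWAT (28.2 to 53.7 and 18.3 to 39.9). In eWAT they also overlapped, though narrowly (9.15 to 21.2 and 19.5 to 35.8). Separate intervals can overlap where an interval of the ratio would not include equality, so the overlap does not place these orders within counting error. An interval of the ratio was not computed for these pairs of sites, so whether any of these orders exceeds counting error was not tested.

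None of the 5 regions common to all depots differed 2-fold from the median ratio between any pair of depots. Over all common regions, 2.8% were at least 2-fold higher in BAT than in iWAT and 2.89% at least 2-fold lower. For BAT against eWAT these shares were 2.73% and 2.44%, and for iWAT against eWAT 1.86% and 1.94%, so most common regions stayed within 2-fold as those at Ucp1 did. The median of the 5 centred log2 ratios was 0.01 for BAT over iWAT, 0.09 for BAT over eWAT and 0.12 for iWAT over eWAT, against 0 by construction for all common regions. Of these 15 ratios, 1 had a counting interval that did not include 0, that of iWAT over eWAT at 11.6 kb upstream. With the 6 ratios at the regions in 2 lists, 21 ratios of single regions were computed. The ratios of sums over the upstream zone and the window come on top, and no interval is adjusted for the number of ratios.

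**Figure D4:**
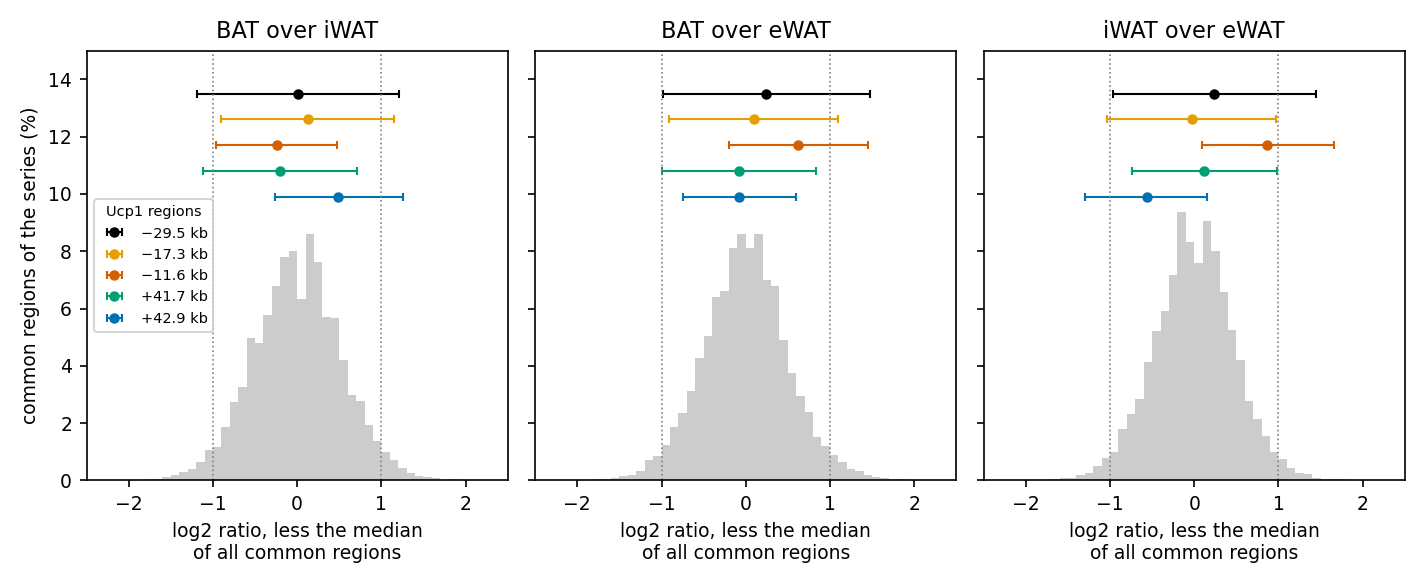
The grey histograms show the log2 ratio of normalized tag counts (x axis, less the median) over the 24988 regions listed once in each depot, as percent of regions (y axis), for BAT over iWAT, BAT over eWAT and iWAT over eWAT from left to right. Coloured points are the 5 Ucp1 regions, spread vertically for legibility only, with exact 95% counting intervals, and dotted lines mark 2-fold. All points lie between the dotted lines, and the point at 11.6 kb upstream is the farthest to the right for iWAT over eWAT, at 0.86.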

How the data were processed

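DNase-seq sites of 1 BAT, 1 iWAT and 1 eWAT library were used, each from the authors' own list. STAR, HOMER and the build mm9 appear in the submitters' processing notes, with no role or setting, and the lists' column names are those of HOMER's findPeaks. Per the file headers, each site has a normalized tag count (a signal), a focus ratio (a fraction), a peak score, a clonal fold, and a fold (ratio) over the local tag density together with its p-value. The deposited lists have a lowest fold of 4 and highest p-values of 9.76e-05 in BAT, 9.9e-05 in iWAT and 9.98e-05 in eWAT. Settings of the peak caller are not given in the sources used here, nor is whether a library pooled cultures.

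Sites overlapping by at least 1 bp or touching were merged into regions. Tags per site were the normalized tag count divided by its step; 100%, 100% and 99.998% of values in BAT, iWAT and eWAT were whole multiples, within 0.05 (0.005 below 10). Ranks are 1 plus the number of sites of the list with a higher count. Ratios use regions with 1 site per list, less the median log2 ratio; their intervals are exact (Clopper-Pearson) on tags. Every region of the 15 kb zone and the gene, every region in all lists and the 3 highest per depot are named; the others are named for completeness. The window, lists and rules were chosen with earlier results of these data known. Code was tested on simulated data. Python 3.11.15, numpy 2.4.6, pandas 2.3.3, scipy 1.17.1 and matplotlib 3.10.9 were used. An mm9 genome and annotation were not used here, so the thermogenic genes planned for context were not analysed here.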

Additional observations from a re-analysis of the deposited data

How the results depend on the processing

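Under every alternative tried, the 15 kb zone held 3 sites in BAT and 2 or 3 in iWAT and in eWAT. In the top 50% of each list by score the window held 6 BAT, 5 iWAT and 6 eWAT sites. Regions listed in BAT alone numbered 2 of 8 at that threshold (11.0% of the series in that class), the sites 5.5 and 4.5 kb upstream. With sites within 200 bp merged they were 0 of 11 (8.68%). With an overlap of 50% of the width required they were 3 of 16 (14.2%). These lay 5.5 and 4.5 kb upstream and 61.2 kb beyond the start. In that setting the BAT and eWAT sites 4.4 kb upstream no longer formed 1 region. The regions 5.6 kb upstream and 61.5 kb beyond the start also split by depot, and the eWAT site 29.5 kb upstream stood apart. Regions in all lists numbered 4 to 6, from 4 of 16 (18.1% of the series) with 50% overlap required to 6 of 11 (34.6%) with sites merged. A common minimum score of 8.87 normalized tags, chosen after seeing the data, left 1 of 10 regions in BAT alone (12.1% of the series). It was the site 4.5 kb upstream. Ranked by peak score, the site 11.6 kb upstream was at the top 10.3% in BAT, 4.40% in iWAT and 19.1% in eWAT; by fold over the surroundings, 17.8%, 4.88% and 25.0%. As deposited, the median log2 ratio of the 5 common regions was -0.31 for BAT over iWAT and 0.72 for iWAT over eWAT. As differences of rank percentiles the medians were -5.03 points for BAT over iWAT and -1.02 for BAT over eWAT, so neither pair has a direction over these regions. Of the 15 single ratios, none was past 2-fold when set against the median ratio. As deposited, iWAT over eWAT at 11.6 kb upstream was past 2-fold, at a log2 ratio of 1.46. The sign changed in 6 of the 15 as deposited, 2 against strong common regions (the top 25% of both lists) and 3 by ranks. The first and second settings shift all ratios of a pair by the same amount, so they turn those of opposite sign to the shift and smaller than it. The farthest from 0 to turn as deposited was iWAT over eWAT at 42.9 kb beyond the start, from -0.56 to 0.04. No paired analysis was possible because each depot has 1 library and the labels number no replicates. Depth limits these values: the 28 sites rest on 9 to 45 tags each.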
